A study of Homo sapiens with 35 samples.

Results

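The clustered protocadherins are cell-surface adhesion proteins of the cadherin superfamily, encoded by 3 neighbouring gene arrays on chromosome 5, the alpha, beta and gamma clusters. They were taken as every row of both deposited count tables whose gene symbol is PCDH followed by A, AC, B, GA, GB or GC and a number, which gave 54 of 59428 rows: 16 alpha, 16 beta and 22 gamma genes. All 54 lie on the plus strand of hg38, the alpha cluster at chr5:140786136-141012347, the beta cluster at chr5:141051374-141249365 and the gamma cluster at chr5:141330514-141512979. The rule uses no measured value.

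The study set human acute myeloid leukaemia lines with guide RNAs against the H3K9 methyltransferase genes SUV39H1 and SUV39H2 beside the same lines with a control guide (sgControl), by poly(A) RNA-seq of 35 libraries in 13 groups from 4 lines. DKO names libraries from cells with guides against both genes, and SKO those with a SUV39H1 guide alone. U937 and THP-1, monocytic lines, and the U937 cells given TPA each had DKO, SKO and sgControl groups of 3 libraries. MOLM-13 had SKO and sgControl, and OCI-AML-3, a line grown in MEM α in place of RPMI-1640, had DKO and sgControl, each as 2 libraries. TPA is a phorbol ester that drives monocytic cells towards a macrophage-like state, and its dose and time are not given in the sources used here. Per the file headers, the untreated U937 DKO libraries are named for a clone 3 and the THP-1 SKO and sgControl libraries for a clone 1, so that a guide's effect and the clone it was read in cannot be told apart. The headers number the SUV39H1 guide 3 in both lines, but the SUV39H2 guide 1 in THP-1 DKO and 3 in U937 DKO. The header names of the THP-1 DKO libraries carry another number code than those of the other THP-1 libraries, and the U937 DKO names lack the code that the other untreated U937 names carry. Whether the libraries of a group came from separate cultures is not stated, and if they did not, the p-values reflect technical scatter alone.

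In neurons, where these genes are best known, each cell switches on a small and largely random set of promoters within the clusters, and the proteins made give the cell a surface identity through strictly like-with-like contacts. Each alpha and gamma gene has its own large first exon, which encodes the outside, membrane-spanning and first inner part of the protein and is spliced to constant exons shared by its cluster, whereas a beta gene is essentially a single exon. Promoter choice depends on CTCF and cohesin, which bind a conserved element with the core CGCT in most of the promoters, and on DNA methylation and H3K9 methylation laid down by enzymes such as DNMT3B and SETDB1, with SMCHD1 as a further repressor. The c-type genes PCDHAC1, PCDHAC2, PCDHGC3, PCDHGC4 and PCDHGC5 are chosen less randomly.

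Promoters that hold the core are shown for members described below, from RefSeq promoters of GRCh38.p14, which cover 250 bases before to 50 bases after a start. They are a selection: the promoters of PCDHB8 and PCDHGB2 hold no CGCT on the sense strand in the window searched, PCDHGB7 holds the letters in surroundings unlike those of the other gamma genes, and no entry was matched for PCDHB6, PCDHGA12 or PCDHGC5. PCDHAC2 is shown, but it holds the letters in 2 places of the window, and those at -95, printed here, stand in surroundings unlike most other alpha genes. Its match need not be the conserved element. Each line gives 40 bases on the plus strand, 5′ to 3′, and the capitals mark CGCT.
PCDHAC2: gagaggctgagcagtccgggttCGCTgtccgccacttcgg
PCDHB2: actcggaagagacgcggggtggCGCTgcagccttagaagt
PCDHB3: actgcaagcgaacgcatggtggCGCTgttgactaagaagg
PCDHB4: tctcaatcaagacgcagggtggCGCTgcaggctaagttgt
PCDHB16: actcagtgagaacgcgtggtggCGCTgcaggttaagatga
PCDHGB3: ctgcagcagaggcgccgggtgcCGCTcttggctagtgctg
PCDHGA6: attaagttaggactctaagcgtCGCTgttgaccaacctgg
PCDHGA10: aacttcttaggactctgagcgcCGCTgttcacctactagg
PCDHGA11: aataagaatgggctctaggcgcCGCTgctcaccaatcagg
PCDHGC3: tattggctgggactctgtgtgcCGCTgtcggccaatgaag
The PCDHAC2 stretch lies at chr5:140966359-140966398 and the PCDHGC3 stretch at chr5:141475874-141475913. The beta stretches lie at chr5:141094538-141094577 for PCDHB2, chr5:141100387-141100426 for PCDHB3, chr5:141121717-141121756 for PCDHB4 and chr5:141182304-141182343 for PCDHB16. The other gamma stretches lie at chr5:141370156-141370195 for PCDHGB3, chr5:141373829-141373868 for PCDHGA6, chr5:141412925-141412964 for PCDHGA10 and chr5:141420966-141421005 for PCDHGA11. All stand before the start of the gene in the count tables.

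An entry was matched for 47 of the 54 members, with 52 promoters between them. CGCT, searched on the sense strand from position -100 to -30, stood in 43 of the 52 (82.7%, PCDHGB7 and PCDHAC2 included), against 21.6% of all 35116 RefSeq promoters. By cluster, 12 of 13 alpha, 12 of 14 beta and 19 of 25 gamma promoters held it there. Each of the 5 members with 2 promoters is a gamma gene whose upstream promoter held it and whose downstream promoter did not. On either strand of the whole 300 bases, 98.1% of member promoters and 70% of all promoters held these letters. The beta promoters shared a longer run, TGGCGCT, which contains the core and was picked after the sequences were seen: 11 of 14 (78.6%) held it in the same window, against 2 of 25 gamma (8%), 0 of 13 alpha and 0.589% of all promoters. These are letter matches, and binding was not measured.

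Reads that fall in exons shared by several members were not counted, which leaves the exon bases that only 1 gene holds. These ran from 2301 to 7872 bases for beta and from 2041 to 5752 for gamma genes, but PCDHA1 kept 7 and PCDHA14 kept 0 such bases, which left them all but unmeasurable. Counted reads per library over all genes ran from 31985767 to 61178704, and a level is given as CPM, the reads per 1000000 counted reads. For a count of 0 in a library, 3 reads were taken as the floor (0.049 to 0.0938 CPM), with each read as independent. Both mates of a pair were counted, so that 82% of member values from 1 to 20 reads in the untreated U937 and THP-1 table and 90.6% in the other table were even: a count of 2 is usually 1 fragment. The floors of 3 reads given here and below are thus too low, and the binomial intervals too narrow. The SUV39H1 transcript averaged 85.7 ± 0.982 CPM in DKO, 109 ± 3.69 in SKO and 65.6 ± 3.57 in sgControl libraries of U937, and 62.4 ± 0.737, 88.9 ± 3.09 and 32.2 ± 2.13 in those of THP-1 (SD, n = 3 each). It was thus higher in the libraries labelled knockout of both untreated lines (and of TPA-treated SKO cells, 53.3 ± 2.67 against 38.4 ± 1.26 in TPA-treated sgControl), and a gene count does not show whether a guide cut the coding sequence, so SKO and DKO below are the labels' names. SUV39H1 was lower in SKO of MOLM-13 (7.35 ± 0.678 against 28.6 ± 1.85) and in DKO of OCI-AML-3 (3.87 ± 1.14 against 39.8 ± 1.06; SD, n = 2 each), and in TPA-treated U937 DKO it averaged 20.1 ± 0.328. SUV39H2 averaged 15.6 ± 0.746 CPM in DKO, 19.1 ± 0.521 in SKO and 29.1 ± 1.28 in sgControl of THP-1. In U937 it was at 33.9 ± 2.38 in DKO and 42.5 ± 2.13 in sgControl, in TPA-treated U937 at 8.93 ± 0.69 and 21.1 ± 0.819, and in OCI-AML-3 at 21.2 ± 2.39 in DKO and 26.7 ± 3.53 in sgControl. SUV39H2 also fell in libraries with no SUV39H2 guide: MOLM-13 SKO was at 11.9 ± 0.818 against 27.4 ± 1.27 in its sgControl (log2 change -1.15 ± 0.08 in edgeR, adjusted p = 1.3e-13), and the log2 change was -0.63 ± 0.07 in THP-1 SKO (adjusted p = 7.5e-09) and -0.27 ± 0.06 in U937 SKO (adjusted p = 0.00025). Of 12 neural marker genes, 1 to 7 were at 0 reads in each group and the list summed to between 1.45 and 10.8 CPM in any library. In THP-1 it summed to 4.11 to 4.77 in DKO, 2.08 to 2.42 in SKO and 1.48 to 2.09 in sgControl. In U937 these were 4.98 to 6.1, 4.84 to 5.86 and 5.26 to 6.16, and under TPA 5.1 to 10.8, 3.98 to 6.71 and 4.62 to 5.61. The neural sum was 1.45 to 2.21 in MOLM-13 SKO against 2.43 to 2.76, and 2.32 to 2.51 in OCI-AML-3 DKO against 2.26 to 2.88. By contrast 10 myeloid markers, none at 0, summed to between 662 and 8720. Their sum was 1320 to 1340 CPM in DKO, 1230 to 1240 in SKO and 662 to 674 in sgControl of U937, and 1980 to 1990, 1350 to 1390 and 1230 to 1240 in THP-1. Under TPA it was 1490 to 1510 in DKO, 1340 to 1350 in SKO and 1430 to 1460 in sgControl. It was 8700 to 8720 in MOLM-13 SKO against 1710 to 1760 in its sgControl, and 2260 to 2310 in OCI-AML-3 DKO against 1170 to 1210. A list of 12 stromal and epithelial markers, 1 to 9 of them at 0 in each group, summed to 283 to 290 CPM in DKO, 176 to 186 in SKO and 89.9 to 97.7 in sgControl of U937, and to 559 to 574, 381 to 387 and 572 to 604 in THP-1. Under TPA it came to 574 to 591 in DKO, 598 to 612 in SKO and 609 to 631 in sgControl. It was 341 to 347 in MOLM-13 SKO against 124 to 128, and 255 to 256 in OCI-AML-3 DKO against 77.7 to 79.7. Nearly all of it was PECAM1, a vessel-wall marker that monocytes also make, at 285 ± 3.14 CPM in U937 DKO and 92.6 ± 3.79 in U937 sgControl. Their part in the results below was not tested.

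The 4 lines held very different amounts of clustered protocadherin RNA, and THP-1 held the most. Summed over the 54 members, the level in sgControl libraries was 125 ± 4.63 CPM in THP-1 and 3.97 ± 0.412 in U937 (SD, n = 3 each), and 22 ± 0.866 in MOLM-13 and 21.4 ± 0.724 in OCI-AML-3 (SD, n = 2 each). The MOLM-13 libraries (21.4 and 22.6) and OCI-AML-3 libraries (20.9 and 22) overlapped, while the U937 and THP-1 libraries stood clear of them and of each other. Of the 54 members, 51 had at least 1 read somewhere, 3 alpha genes (PCDHA6, PCDHA11 and PCDHA14) had none in any library, and PCDHGA6 alone had reads in all 35. In bulk RNA, fewer cells using a member and less of its RNA per cell cannot be told apart. Fold changes below come from edgeR's quasi-likelihood test over all genes with TMM scaling and Benjamini-Hochberg adjustment, and are called at an adjusted p under 0.05. They are written as log2 ± standard error. Whether the libraries of the compared groups overlap is given below as description only. The share of all genes without overlap was not counted, so a lack of overlap adds nothing to a call.

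**Figure D1:**
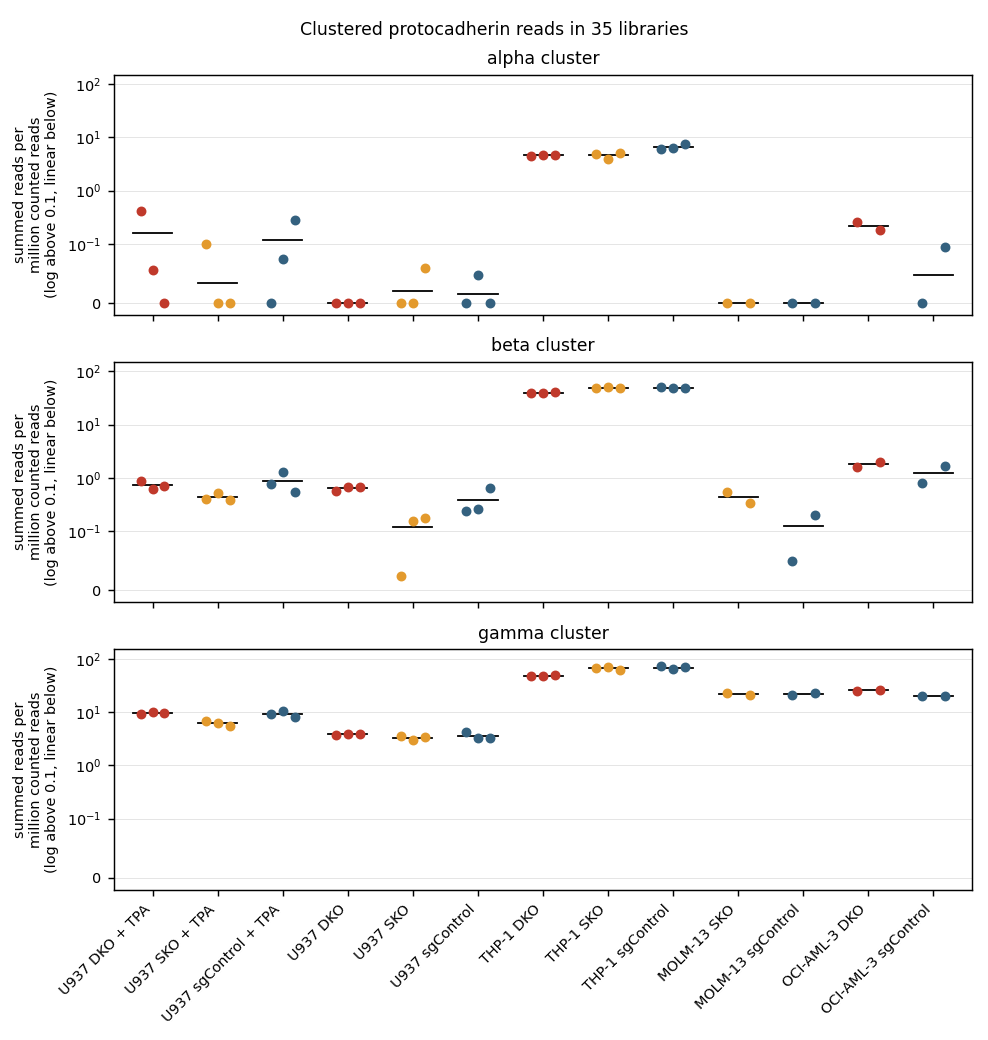
Summed CPM of each cluster in all 35 libraries (vertical axis logarithmic above 0.1 and linear below), with 1 point per library and a bar at the group mean; red is DKO, orange SKO and blue sgControl. THP-1 is highest in every cluster, and alpha levels outside THP-1 stay below 1 CPM.

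The alpha cluster was close to silent outside THP-1. It had 0 reads in all 4 MOLM-13 libraries and in all 3 untreated U937 DKO libraries, 2 reads over the untreated U937 SKO libraries and 2 over the U937 sgControl libraries, and at most 19 over any other group outside THP-1. In all, 16 of 35 libraries had no alpha read. In THP-1 the cluster summed to 4.57 ± 0.0515 CPM in DKO, 4.55 ± 0.637 in SKO and 6.59 ± 0.757 in sgControl libraries (SD, n = 3 each), nearly all of it from PCDHAC2, the last gene of the array. PCDHAC2 had 478 of the 485 alpha reads in DKO, 804 of 810 in SKO and 1066 of 1106 in sgControl. THP-1 sgControl replicate 3 had 2 to 6 reads in each of 11 further alpha genes, among them PCDHA4 (6 reads) and PCDHA13 (4 reads), which had none in the other THP-1 libraries. Of the other 8 THP-1 libraries, sgControl replicate 1 had reads in 2 such genes and no other in more than 1.

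The beta cluster was likewise a feature of THP-1, at 39.9 ± 0.811 CPM in DKO, 49.6 ± 0.559 in SKO and 49.7 ± 1.82 in sgControl libraries. All 16 beta genes had reads in THP-1 DKO and sgControl, and 15 did in SKO, where PCDHB7 had none. Per kilobase of unshared exon, PCDHB6 led with 4.08 ± 0.232 CPM in sgControl, followed by PCDHB2 with 3.69 ± 0.132 and PCDHB5 with 3.41 ± 0.131 (SD, n = 3 each). PCDHB6 had no read in any of the other 26 libraries, and PCDHB5 had 2 reads, both in 1 TPA-treated U937 sgControl library. In OCI-AML-3 the cluster stood at 1.81 ± 0.266 in DKO and 1.22 ± 0.593 in sgControl (SD, n = 2 each). There PCDHB14 had 52 reads over DKO and 43 over sgControl, and PCDHB13 had 18 and 44. In U937, PCDHB2 was the main beta gene, with 38 reads over DKO, 5 over SKO and 20 over sgControl.

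The gamma cluster was detected in every group and held 92.9% ± 0.481 of member reads in TPA-treated U937 SKO, 99.4% ± 0.453 in MOLM-13 sgControl and 54.9% ± 0.956 in THP-1 sgControl. Which gamma gene held most of the reads depended on the line. PCDHGC3, a c-type gene near the end of the array, gave 75.1% ± 7.74 of all member reads in OCI-AML-3 sgControl, 82% ± 0.846 in MOLM-13 sgControl and 30.7% ± 0.621 in THP-1 sgControl. In U937 sgControl, PCDHGB2 held 24.7% ± 2.47, followed by PCDHGC3 with 21.4% ± 2.78 and PCDHGA6 with 17.1% ± 4.6, shares whose spreads overlap for PCDHGB2 and PCDHGC3 (SD, n = 3 for U937 and THP-1, n = 2 for the others). On the scale per kilobase of unshared exon, PCDHGC3 in THP-1 sgControl was at 11.8 ± 0.646 CPM, above every other member. PCDHGA7 was the only gamma gene with no read in THP-1.

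**Figure D2:**
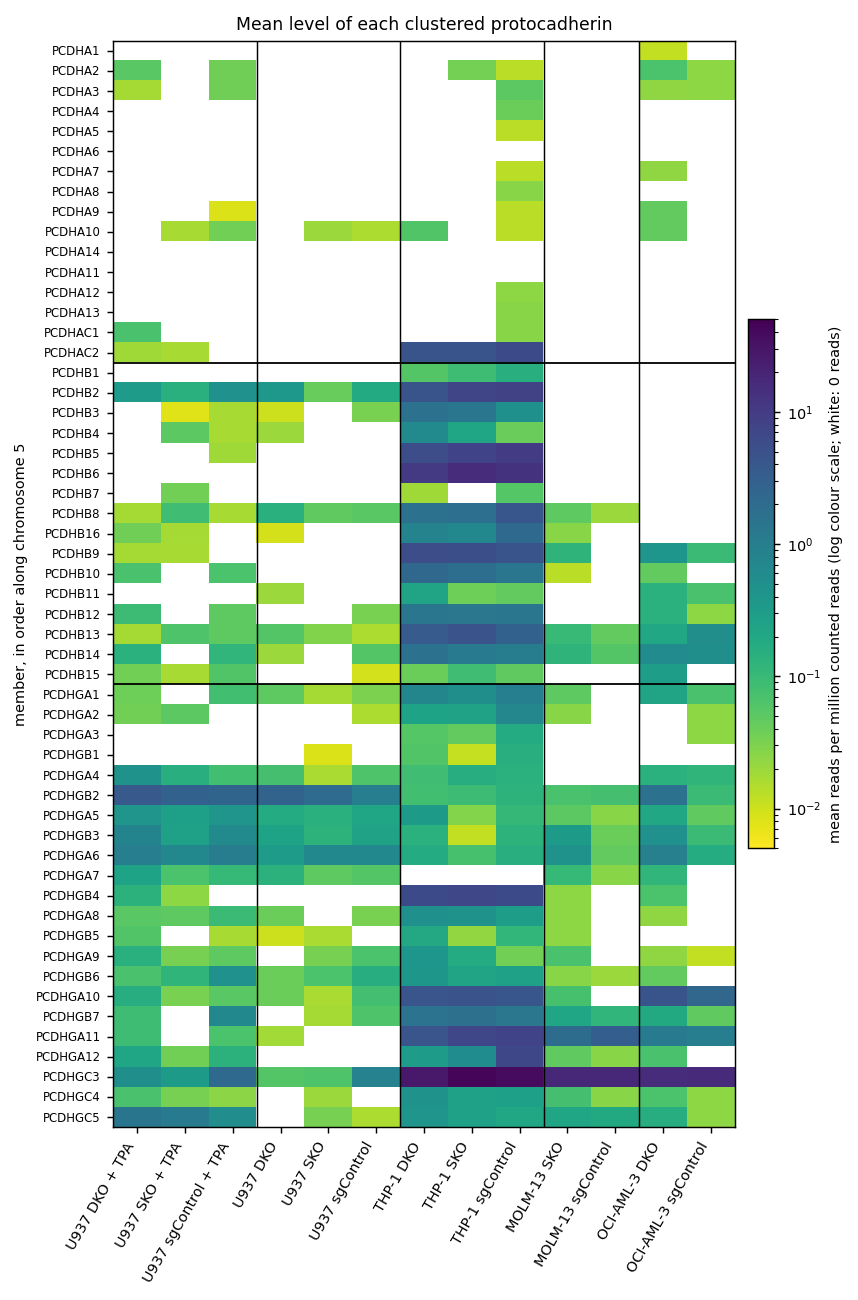
Mean CPM of the 54 members (rows, in order along chromosome 5, with lines between the clusters) in the 13 groups (columns); the colour scale is logarithmic and white is 0 reads. PCDHGC3 is dark in THP-1, MOLM-13 and OCI-AML-3, PCDHGB2 in U937, and the alpha block is nearly white apart from PCDHAC2 in THP-1.

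In THP-1 the largest change in either knockout was a loss of PCDHGA12, a gamma A gene with the sixth highest level per kilobase among the members in sgControl. It had 17, 6 and 10 reads in the libraries labelled DKO, 24, 42 and 37 in those labelled SKO and 457, 399 and 296 in sgControl. The THP-1 DKO libraries held 31985767 to 38678090 counted reads, against 51181859 to 61178704 in SKO and sgControl. Raw reads in THP-1 thus run lower in DKO at an equal level. No knockout library came near the sgControl libraries. The fall was -4.65 ± 0.27 in DKO (adjusted p = 1.4e-15) and -3.58 ± 0.22 in SKO (adjusted p = 3.3e-14). Of its neighbours in the array, PCDHGA11 on the near side had 152, 125 and 194 reads in DKO, 415, 425 and 404 in SKO and 461, 430 and 415 in sgControl. It fell in DKO (-1.01 ± 0.13, adjusted p = 9.6e-08) and had a value of -0.17 ± 0.12 in SKO that did not pass (adjusted p = 0.28). PCDHGC3 on the far side had 962, 905 and 973 reads in DKO, 2614, 2672 and 2390 in SKO and 2451, 2102 and 1936 in sgControl. Its level fell by 0.72 on the log2 scale in DKO (standard error 0.07, adjusted p = 2e-10), and the SKO value of 0.14 ± 0.07 did not pass (adjusted p = 0.078).

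Of the 54 members, 27 had enough reads in THP-1 to be tested: PCDHAC2, 12 beta and 14 gamma genes. In DKO 4 were higher and 10 lower (51.9% called, where 65.6% of all genes tested were called), with a median of -0.15 over the tested members and 0.05 over all genes. In SKO 4 were higher and 6 lower (37% called, where the share over all genes was 43.5%), with medians of 0.08 and 0.01. Neither share of members was above that of all genes, and both comparisons use the same sgControl libraries. PCDHB4 and PCDHGA9 passed the filter on low counts only through knockout libraries, where they are high, which shapes these counts and medians. Summed over all members, DKO was at 92.5 ± 1.45 CPM, SKO at 121 ± 3.01 and sgControl at 125 ± 4.63 (SD, n = 3 each), and the DKO libraries lay below all others. With TMM-scaled library sizes these became 83.4 ± 1.86, 127 ± 3.18 and 133 ± 7.47, and fitted THP-1 DKO fold changes stand 0.21 below the ratios of CPM.

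Among beta genes, PCDHB8 and PCDHB16 fell in both knockouts. PCDHB8 had 64, 40 and 61 reads in DKO, 138, 84 and 87 in SKO and 254, 240 and 221 in sgControl. Neither knockout overlapped with sgControl (-1.66 ± 0.22, adjusted p = 1.3e-07 in DKO; -1.30 ± 0.21, adjusted p = 6.5e-06 in SKO). PCDHB16 had 22, 32 and 32 reads in DKO, 47, 29 and 44 in SKO and 123, 124 and 110 in sgControl (-1.57 ± 0.30, adjusted p = 4.2e-05 in DKO; -1.66 ± 0.29, adjusted p = 2.6e-05 in SKO). PCDHB3 and PCDHB4 rose in both. PCDHB3 had 43, 50 and 68 reads in DKO, 67, 99 and 71 in SKO and 24, 35 and 25 in sgControl, with both knockouts above sgControl in every library in CPM (1.41 ± 0.33, adjusted p = 0.00047 in DKO; 1.39 ± 0.33, adjusted p = 0.00081 in SKO). PCDHB4 had 21, 27 and 18 reads in DKO, 5, 18 and 16 in SKO and 2, 3 and 2 in sgControl. It rose by 3.64 ± 0.76 in DKO (adjusted p = 0.00011) and by 2.30 ± 0.77 in SKO (adjusted p = 0.016). The SKO call on PCDHB4 ended without SKO replicate 2 (adjusted p = 0.066), SKO replicate 3 (0.052) or sgControl replicate 1 (0.053).

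PCDHB6, the highest beta gene, went opposite ways in the 2 knockouts. It had 411, 326 and 364 reads in DKO, 848, 895 and 1055 in SKO and 812, 762 and 620 in sgControl. It fell in DKO (-0.53 ± 0.09, adjusted p = 1.4e-05) and rose in SKO (0.25 ± 0.09, adjusted p = 0.022), a call that ended without SKO replicate 3 (adjusted p = 0.16) or sgControl replicate 3 (0.13). DKO against SKO was -0.78 ± 0.09 (adjusted p = 2.7e-08). PCDHB13 had 150, 103 and 126 reads in DKO, 285, 297 and 276 in SKO and 164, 166 and 156 in sgControl. It rose in SKO (0.72 ± 0.15, adjusted p = 0.00024), whereas its DKO value of 0.10 ± 0.16 did not pass (adjusted p = 0.61). PCDHB2 fell in DKO, with 183, 130 and 181 reads there, 364, 465 and 491 in SKO and 526, 492 and 417 in sgControl (-1.08 ± 0.13, adjusted p = 1e-08), and its SKO value was -0.22 ± 0.12 (adjusted p = 0.13). Some of these genes are near copies of each other: 25.7% of the 100-base windows of PCDHB8, 24.7% of those of PCDHB10 and 15.1% of those of PCDHB13 also occur in another member. Reads from such stretches may be left out or misplaced, which makes their levels uncertain.

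The alpha gene PCDHAC2 was lower in both THP-1 knockouts, with 168, 148 and 162 reads in DKO, 270, 230 and 304 in SKO and 363, 357 and 346 in sgControl (-0.69 ± 0.14, adjusted p = 7.9e-05 in DKO; -0.51 ± 0.14, adjusted p = 0.0028 in SKO). The groups did not overlap with sgControl in CPM. PCDHGA2 was at 8, 2 and 16 reads in DKO, 8, 18 and 18 in SKO and 31, 42 and 44 in sgControl (-1.72 ± 0.59, adjusted p = 0.012 in DKO; -1.53 ± 0.56, adjusted p = 0.028 in SKO). The DKO call on it ended without DKO replicate 2 (adjusted p = 0.065), and the SKO call without SKO replicate 1 (0.1), sgControl replicate 2 (0.065) or sgControl replicate 3 (0.09). PCDHGA9 rose in DKO, where it had 18, 16 and 8 reads against 4, 0 and 2 in sgControl (3.19 ± 0.92, adjusted p = 0.0033), and its 8, 19 and 4 reads in SKO gave 2.19 ± 0.93 (adjusted p = 0.059). PCDHB10 and PCDHB5 were the remaining called members. PCDHB10 stood at 0.52 ± 0.23 in DKO alone (adjusted p = 0.049). PCDHB5 stood at -1.03 ± 0.12 in DKO and -0.36 ± 0.11 in SKO (adjusted p = 1.5e-08 and 0.011). The PCDHB10 call ended with no filter on low counts (adjusted p = 0.13), with a replicate block (0.056) and without any 1 of 6 libraries (adjusted p from 0.05 to 0.15), namely SKO replicate 1, DKO replicates 1, 2 and 3 and sgControl replicates 2 and 3. The SKO call on PCDHB5 ended without SKO replicate 3 (adjusted p = 0.13).

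**Figure D3:**
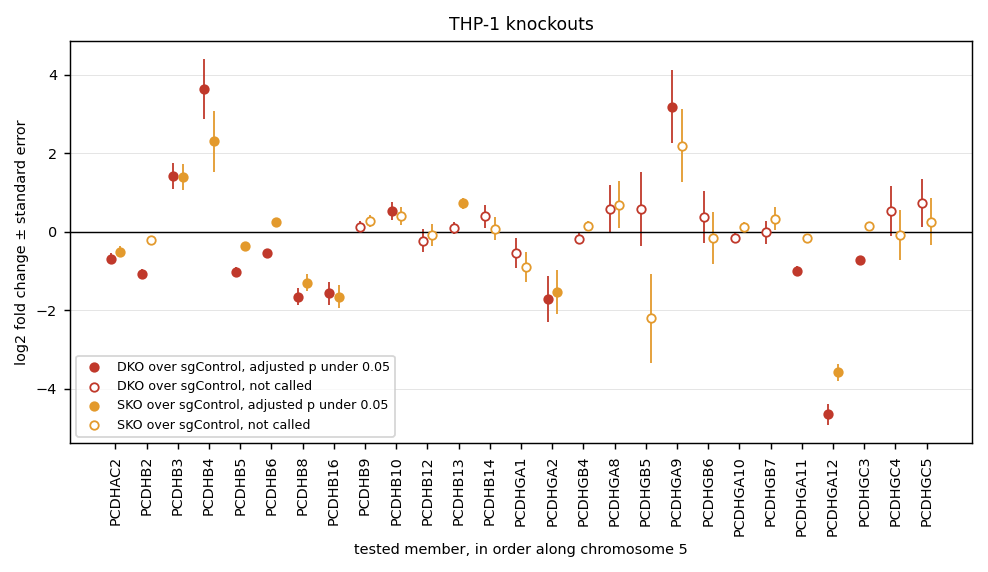
Log2 fold change over sgControl with its standard error for the 27 members tested in THP-1, in order along chromosome 5; red is DKO, orange SKO, filled points are called at adjusted p under 0.05 and open points are not. PCDHGA12 lies at -4.65 in DKO and -3.58 in SKO, below every other member, between PCDHGA11 and PCDHGC3.

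Set against SKO, THP-1 DKO had 1 of the 27 tested members higher and 8 lower (33.3% called, where 53.8% of all genes were called). The member higher in DKO was PCDHGB5, with 8, 8 and 4 reads in DKO and 0, 4 and 0 in SKO (2.78 ± 1.12, adjusted p = 0.037), and its call ended with no filter on low counts (adjusted p = 0.1) and without any 1 of 6 libraries (adjusted p from 0.052 to 0.15), SKO replicates 1 and 3, DKO replicates 1, 2 and 3 and sgControl replicate 2. PCDHGC3 was lower (-0.87 ± 0.07, adjusted p = 7.5e-12), and PCDHB2 (-0.85 ± 0.13, adjusted p = 1.2e-06) and PCDHGA11 (-0.84 ± 0.13, adjusted p = 3.6e-06) were lower by a like amount. PCDHGA12 was lower in DKO again (-1.07 ± 0.32, adjusted p = 0.0058), although its 17, 6 and 10 reads in DKO overlapped in CPM with its 24, 42 and 37 in SKO, and the call ended when only these groups were fitted (adjusted p = 0.062).

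In untreated U937, where the whole family came to between 3.18 and 4.6 CPM in any library, 5 members had enough reads to be tested, and PCDHGC3 and PCDHGB2 moved in opposite directions. PCDHGC3 had 0, 0 and 6 reads in the libraries labelled DKO, 0, 4 and 3 in those labelled SKO and 46, 31 and 27 in sgControl. It fell in both, with a log2 change of -3.87 ± 0.75 in DKO (adjusted p = 4.2e-05) and of -3.70 ± 0.73 in SKO (adjusted p = 6.3e-05). PCDHGB2, a gamma B gene, had 92, 114 and 72 reads in DKO, 94, 63 and 71 in SKO and 42, 37 and 38 in sgControl. It rose by 1.39 ± 0.24 in DKO (adjusted p = 7.4e-06) and 1.07 ± 0.24 in SKO (adjusted p = 0.00034). For both genes every knockout library stood clear of every sgControl library, which adds nothing to calls already chosen by adjusted p. PCDHGB2 thereby made up 59.4% ± 11.1 of member reads in DKO and 57.6% ± 6.16 in SKO, against 24.7% ± 2.47 in sgControl.

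The count in U937 was 1 higher and 2 lower of 5 in DKO (60% called, where 67.7% of all genes were called) and 1 higher and 1 lower in SKO (40% called, where the share over all genes was 61.9%). The medians over the tested members were -0.18 in DKO and -0.84 in SKO, beside -0.01 and -0.00 over all genes. PCDHGC3 passed the filter on low counts only through sgControl and PCDHB2 mainly through DKO, where they are high. These counts and medians were thus shaped by the filter. The other called member was PCDHGA6, with 10, 8 and 14 reads in DKO, 18, 26 and 32 in SKO and 36, 18 and 28 in sgControl. It was lower in DKO than in sgControl (-1.20 ± 0.47, adjusted p = 0.026) and than in SKO (-1.21 ± 0.47, adjusted p = 0.035). Against sgControl that call ended without DKO replicate 1 (adjusted p = 0.061), DKO replicate 2 (0.096), sgControl replicate 1 (0.11) or sgControl replicate 3 (0.078). Against SKO it ended without SKO replicate 2 (0.071), SKO replicate 3 (0.18), DKO replicate 1 (0.078) or DKO replicate 2 (0.12). DKO against SKO, where 2 of 5 members were called beside 49% of all genes, also had PCDHB2 higher. It had 14, 14 and 10 reads in DKO against 1, 4 and 0 in SKO (2.88 ± 0.93, adjusted p = 0.011). In sgControl it had 0, 4 and 16, a spread as wide as the difference. Without SKO replicate 3 the PCDHB2 call ended (adjusted p = 0.055), and neither member was then called.

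Under TPA the U937 family stood at 10.5 ± 0.244 CPM in DKO, 6.61 ± 0.739 in SKO and 10.2 ± 1.51 in sgControl, and 9 members were tested. PCDHGC3 was again lower in both knockouts, with 28, 19 and 9 reads in DKO, 11, 8 and 22 in SKO and 98, 88 and 61 in sgControl (-1.85 ± 0.37, adjusted p = 8.4e-05 in DKO; -2.57 ± 0.39, adjusted p = 3.1e-06 in SKO). PCDHGB7 had 8, 2 and 0 reads in DKO, 0, 0 and 0 in SKO and 34, 22 and 24 in sgControl. It fell in DKO (-2.68 ± 0.71, adjusted p = 0.0016) and in SKO (adjusted p = 8.7e-06). Its level in sgControl was 27.8-fold a floor of 3 reads over the SKO group. In neither gene did a knockout library reach the sgControl range, which again adds nothing to the calls.

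PCDHGC5, a c-type gene at the end of the array, went the other way under TPA. It had 55, 47 and 51 reads in DKO, 54, 42 and 36 in SKO and 24, 28 and 12 in sgControl. Both knockouts were above sgControl in every library (1.55 ± 0.34, adjusted p = 0.00021 in DKO; 1.07 ± 0.34, adjusted p = 0.01 in SKO). The SKO call ended without SKO replicate 1 (adjusted p = 0.056) or sgControl replicate 3 (0.061). PCDHGB2 had 118, 149 and 154 reads in DKO, 130, 94 and 130 in SKO and 74, 133 and 97 in sgControl. It rose in DKO (0.76 ± 0.20, adjusted p = 0.0013) with groups that overlapped in CPM, and stood at 0.23 ± 0.20 in SKO (adjusted p = 0.36). PCDHGA4 rose in DKO, with 16, 15 and 18 reads against 4, 6 and 0 in sgControl (2.54 ± 0.78, adjusted p = 0.005). PCDHB2 fell in SKO, with 2, 6 and 10 reads against 17, 26 and 12 in sgControl (-1.57 ± 0.58, adjusted p = 0.027). That call ended without SKO replicate 1 (adjusted p = 0.13), SKO replicate 2 (0.062), sgControl replicate 1 (0.055) or sgControl replicate 2 (0.15). In all, DKO had 3 higher and 2 lower (55.6% called, where 70.6% of all genes were called) and SKO 1 higher and 3 lower (44.4%, where the share over all genes was 50.4%). The members' medians were 0.26 in DKO and -0.57 in SKO, beside -0.05 and -0.00 over all genes. PCDHGB7 passed the filter on low counts only through sgControl and PCDHGA4 only through DKO, where they are high. The counts and medians under TPA were thus shaped by the filter. Fitted DKO fold changes under TPA stand 0.22 above the ratios of CPM against sgControl and 0.15 above them against SKO.

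Against SKO under TPA, 4 of 9 members were called, all higher in DKO (44.4%, where 63.7% of all genes were called), and 2 were called without DKO replicate 2 or without DKO replicate 3. PCDHGB2 was higher by 0.52 ± 0.19 (adjusted p = 0.021) with overlapping libraries, and the call ended without SKO replicate 2 (adjusted p = 0.096), DKO replicate 2 (0.079) or DKO replicate 3 (0.076). PCDHGB3 had 34, 10 and 46 reads in DKO and 18, 8 and 5 in SKO (1.77 ± 0.57, adjusted p = 0.0086). That call ended without SKO replicate 3 (adjusted p = 0.056) or DKO replicate 3 (0.087). PCDHGB7 was higher in DKO on 10 reads against 0, 3.62-fold a floor of 3 reads over the SKO group. Its call ended without DKO replicate 1 (adjusted p = 0.13). The call on PCDHGA4 (1.69 ± 0.71, adjusted p = 0.041) ended with no filter on low counts (0.054) and without SKO replicate 1 or 2, DKO replicate 1, 2 or 3, or sgControl replicate 1 or 2 (adjusted p from 0.06 to 0.19).

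TPA-treated U937 cells had more gamma reads than untreated ones in each genotype: 9.65 ± 0.447 against 3.86 ± 0.102 CPM in DKO, 6.13 ± 0.677 against 3.31 ± 0.259 in SKO and 9.19 ± 1.23 against 3.57 ± 0.513 in sgControl (SD, n = 3 each). The TPA-treated and untreated libraries stand in different deposited tables, so treatment and table cannot be told apart. Of 9 members tested, 8 were higher in DKO (88.9% called, where 73.1% of all genes were called), 4 in SKO (44.4%, where the share over all genes was 62.9%) and 4 in sgControl (44.4%, where it was 67.7%). Members with few untreated reads, such as PCDHGC5, passed the filter on low counts only through treated libraries, which favours rises in these counts. Fitted TPA effects in DKO stand 0.23 above the ratios of CPM. The DKO count was 5 without untreated DKO replicate 1, and the SKO count 2 without TPA-treated SKO replicate 3. PCDHGC5 stood out in all 3. It had 55, 47 and 51 reads with TPA and 0, 0 and 0 without it in DKO, 47.3-fold a floor of 3 reads over the untreated group (adjusted p = 3.1e-10). In SKO it had 54, 42 and 36 reads with TPA and 2, 2 and 0 without it (4.84 ± 0.65, adjusted p = 6.4e-08). In sgControl it had 24, 28 and 12 with TPA and 2, 0 and 0 without it, a ratio of 33.2 (adjusted p = 1.8e-06). Its exact binomial 95% interval of 8.81 to 280 takes each read as independent and is too narrow, as mates were counted singly.

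PCDHGB2 and PCDHGC3 were also higher with TPA in each genotype. PCDHGB2 rose by 0.73 ± 0.20 in DKO (adjusted p = 0.0016), 0.53 ± 0.21 in SKO (adjusted p = 0.027) and 1.35 ± 0.23 in sgControl (adjusted p = 3.2e-06), where it had 74, 133 and 97 reads with TPA and 42, 37 and 38 without it. The SKO call ended without untreated SKO replicate 2 (adjusted p = 0.13), TPA-treated SKO replicate 1 (0.1) or TPA-treated SKO replicate 3 (0.069). PCDHGC3 rose by 3.27 ± 0.73 in DKO (adjusted p = 0.00013), 2.37 ± 0.74 in SKO (adjusted p = 0.0055) and 1.22 ± 0.44 in sgControl (adjusted p = 0.015), the last a call that ended without untreated replicate 2 (adjusted p = 0.058), untreated replicate 3 (0.052) or TPA-treated replicate 1 (0.068). PCDHGB7 rose in sgControl, with 34, 22 and 24 reads with TPA and 4, 4 and 0 without it (3.27 ± 0.84, adjusted p = 0.00099). In DKO it had 8, 2 and 0 reads with TPA and 0, 0 and 0 without it, 3.09-fold a floor of 3 reads over the untreated group (adjusted p = 0.013). That call ended without TPA-treated DKO replicate 1 (0.16).

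PCDHGA4 had 16, 15 and 18 reads with TPA and 0, 4 and 4 without it in DKO, and rose by 2.69 ± 0.91 (adjusted p = 0.0086), a call that ended without untreated DKO replicate 1 (0.061). In SKO it had 0, 8 and 10 reads with TPA and 2, 0 and 0 without it, overlapping groups with a ratio of 8.45 (adjusted p = 0.044). The exact binomial 95% interval of 2.02 to 75.1 likewise takes each read as independent and is too narrow. The SKO call on PCDHGA4 ended under 13 of the 22 alternatives run, the replicate block among them (0.069). PCDHGB3 had 34, 10 and 46 reads with TPA and 4, 2 and 18 without it in DKO (1.99 ± 0.69, adjusted p = 0.0099). Its groups overlapped, and the call ended without untreated DKO replicate 1 (0.05) or 2 (0.066) or TPA-treated DKO replicate 3 (0.077). PCDHGA6 (1.85 ± 0.50, adjusted p = 0.0013) and PCDHGA5 (1.48 ± 0.63, adjusted p = 0.034) were the other members called in DKO, both with overlapping groups. The PCDHGA5 call ended with no filter on low counts (0.08) and without untreated DKO replicate 1 or 3 or TPA-treated DKO replicate 2 or 3 (adjusted p from 0.052 to 0.18).

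When the knockout effects with and without TPA were set against each other, 1 of 9 members differed for SKO (11.1%, where 37.7% of all genes did, 19.6% with a higher and 18.1% with a lower effect) and 0 of 9 for DKO by edgeR (2 at an unadjusted p under 0.05, 1 by DESeq2; 49.6% of all genes). The member was PCDHGB2, whose SKO effect was smaller with TPA (-0.82 ± 0.31, adjusted p = 0.037). That call ended with no filter on low counts (adjusted p = 0.06), and without untreated SKO replicate 1 or 3, untreated sgControl replicate 1 or 2, TPA-treated SKO replicate 2, or TPA-treated sgControl replicate 2 or 3 (adjusted p from 0.058 to 0.15).

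**Figure D4:**
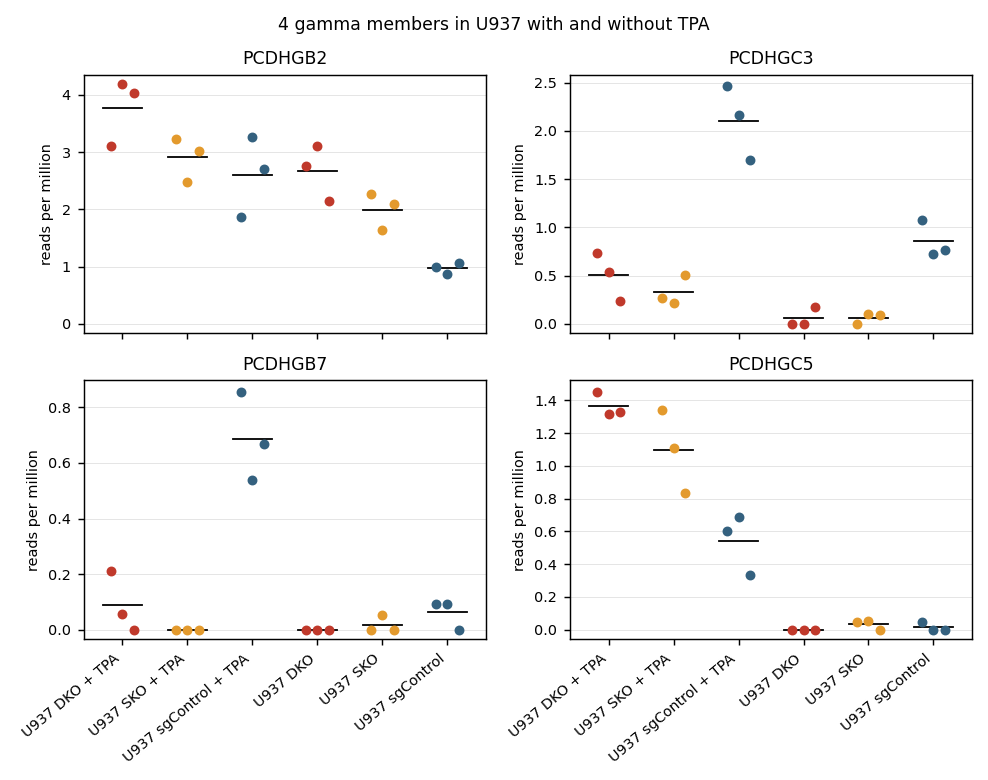
CPM of 4 gamma members in U937 cells with TPA (left) and without (right), with 1 point per library and a bar at the group mean; red is DKO, orange SKO and blue sgControl. PCDHGC3 and PCDHGB7 are highest in TPA-treated sgControl, PCDHGC5 appears with TPA and is highest in DKO, and PCDHGB2 is lowest in untreated sgControl.

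MOLM-13 used the gamma cluster almost alone, and PCDHGC3 with it: 713 and 723 reads in SKO and 688 and 941 in sgControl, a value of 0.04 ± 0.08 that did not pass (adjusted p = 0.7). Of 4 members tested, 2 were higher and 1 lower in SKO (75% called, where 64% of all genes were called). Their median was 1.47, beside 0.02 over all genes. The filter on low counts asks for reads in as many libraries as the smallest group holds, in whichever group. PCDHGA6 and PCDHGB3 passed it only through SKO, where they are high. The 2 rises and the median were thus shaped by the filter. PCDHGA6 had 22 and 14 reads in SKO against 2 and 2 in sgControl (3.31 ± 0.77, adjusted p = 0.0004), and PCDHGB3 had 13 and 14 against 0 and 4 (2.91 ± 0.85, adjusted p = 0.0035). PCDHGA11 had 92 and 60 reads in SKO against 130 and 161 in sgControl and was lower (-0.71 ± 0.23, adjusted p = 0.0072). None of the 3 overlapped, but with 2 libraries a group the PCDHGA11 call ended without SKO replicate 2 (-0.38, adjusted p = 0.19), as it did when all libraries of the table were fitted together (adjusted p = 0.11), and the PCDHGB3 call ended without sgControl replicate 1 (adjusted p = 0.087). The share of genes without overlap was not counted over all genes, so the lack of overlap adds nothing to these calls. Members with any read numbered 25 of 54 in SKO and 15 in sgControl, and those with at least 10 reads over the group 8 and 4. Many of the others rest on a few reads, and such counts were not made over all genes.

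OCI-AML-3 likewise rested on PCDHGC3, which had 636 and 743 reads in DKO and 715 and 643 in sgControl (-0.02 ± 0.10, adjusted p = 0.91). Around it 5 of 9 tested members were called, all higher in DKO (55.6%, where 49.9% of all genes were called and 24.3% called higher), and the family total was 27.8 ± 1.09 CPM in DKO against 21.4 ± 0.724 in sgControl (SD, n = 2 each). The median over the 9 was 0.94, beside 0.02 over all genes. PCDHGB2, PCDHGA6, PCDHGB3 and PCDHB9, with few reads in sgControl, passed the filter on low counts only through DKO, where they are high. The 1-sided count and the median were thus shaped by the filter. PCDHGB2 had 68 and 66 reads in DKO against 4 and 4 in sgControl (3.99 ± 0.50, adjusted p = 1.9e-09). PCDHGA6 had 48 and 31 against 8 and 6 (2.44 ± 0.53, adjusted p = 0.00012), and PCDHGB3 had 14 and 28 against 6 and 2 (2.32 ± 0.69, adjusted p = 0.0044). PCDHGA10, the next gene after PCDHGC3 by reads, had 196 and 195 reads in DKO against 84 and 115 in sgControl (0.94 ± 0.19, adjusted p = 5.6e-05). PCDHB9 had 20 and 14 against 6 and 2 (2.02 ± 0.71, adjusted p = 0.016). None of the 5 overlapped between the groups, but they were already chosen by adjusted p. The share of genes without overlap was not counted over all genes, so this adds nothing to the calls.

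With 2 libraries a group, several of the OCI-AML-3 calls ended when a library was left out or the processing was changed. PCDHGB2 kept its call under all 10 alternatives run. Without DKO replicate 1 the count fell to 1, against 5 with all libraries, and without DKO replicate 2 to 2. Without DKO replicate 1 the calls on PCDHGA6 (adjusted p = 0.052), PCDHGA10 (0.075), PCDHGB3 (0.072) and PCDHB9 (0.19) ended, and without DKO replicate 2 those on PCDHGA10 (0.071), PCDHGB3 (0.19) and PCDHB9 (0.12). Without sgControl replicate 2 those on PCDHGB3 (0.11) and PCDHB9 (0.24) ended. With no filter on low counts the calls on PCDHGB3 (0.07) and PCDHB9 (0.093) ended, and PCDHB9 was also lost under DESeq2's test (0.096) and when all libraries of the table were fitted together (0.12).

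**Figure D5:**
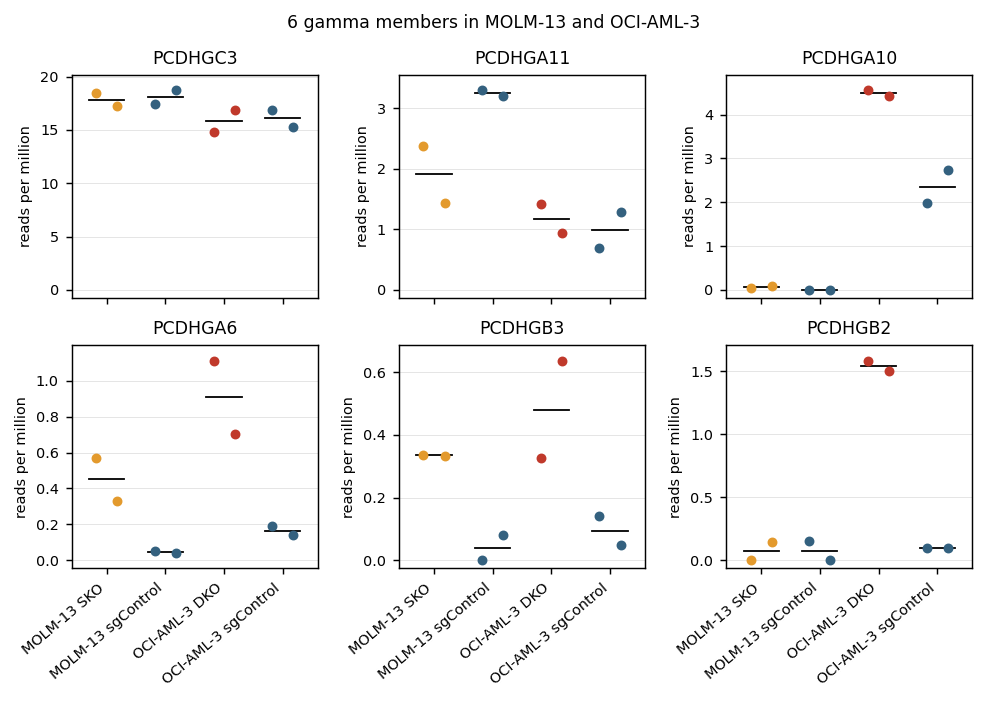
CPM of 6 gamma members in the MOLM-13 and OCI-AML-3 libraries, with 1 point per library and a bar at the group mean; red is DKO, orange SKO and blue sgControl. PCDHGC3 overlaps between the groups of each line, while PCDHGA6 and PCDHGB3 are higher in the knockouts of both and PCDHGB2 in OCI-AML-3 DKO.

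The knockout effects were also set against each other between U937 and THP-1, with 30 members tested. The DKO libraries of the 2 lines carry SUV39H2 guides of different number, so line and guide cannot be told apart in the DKO effect. The DKO effect differed for 6 (20%, where 54.4% of all genes differed) and the SKO effect for 3 (10%, where 46.9% did). PCDHGC3 differed in both, its effect in U937 minus that in THP-1 being -3.12 ± 0.56 for DKO (adjusted p = 1e-05) and -3.85 ± 0.50 for SKO (adjusted p = 4.3e-08). PCDHB2, PCDHB8 and PCDHGB2 had a higher DKO effect in U937 than in THP-1, by 2.18 ± 0.57 (adjusted p = 0.0015), 3.12 ± 0.91 (adjusted p = 0.004) and 2.38 ± 0.83 (adjusted p = 0.014). U937 had 15 reads of PCDHB8 over DKO and 6 over sgControl, and THP-1 had 8 reads of PCDHGB2 over DKO and 22 over sgControl, so both differences rest on few reads. The call on PCDHGB2 ended without THP-1 DKO replicate 1 (adjusted p = 0.058) or THP-1 sgControl replicate 1 (0.16), and that on PCDHB8 without U937 DKO replicate 2 (0.056). The remaining 4 called differences, in PCDHB3 and PCDHB14 for SKO and PCDHGA9 and PCDHGB7 for DKO, involve a U937 group with 0 reads and have no usable size. Of these calls, those on PCDHB3 (without U937 SKO replicate 1 or 2 or U937 sgControl replicate 1, adjusted p from 0.05 to 1), PCDHB14 (without U937 SKO replicate 1, 0.052) and PCDHGB7 (without U937 DKO replicate 1, 2 or 3 or U937 sgControl replicate 1 or 2, 0.06 to 0.077) ended. With counts halved, PCDHB3 (0.084), PCDHB14 (0.055) and PCDHGB7 (0.094) were not called either.

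Of 36 genes listed as regulators of these promoters, the targeted SUV39H1 and SUV39H2 among them, all were tested in every line. In DKO 6 were higher and 23 lower in THP-1, 9 and 22 in U937, 6 and 23 in TPA-treated U937 and 2 and 26 in OCI-AML-3, with list medians of -0.18, -0.23, -0.43 and -0.35 beside all-gene medians of 0.05, -0.01, -0.05 and 0.02. Of all genes, 31.9% were called higher and 33.7% lower in THP-1 DKO, 33.2% and 34.5% in U937, 34.1% and 36.5% in TPA-treated U937 and 24.3% and 25.6% in OCI-AML-3. In SKO the counts were 12 and 11 in THP-1, 14 and 11 in U937, 8 and 16 in TPA-treated U937 and 2 and 27 in MOLM-13, with list medians of 0.01, 0.04, -0.07 and -0.30 beside 0.01, -0.00, -0.00 and 0.02 over all genes. There 20.6% of all genes were called higher and 22.8% lower in THP-1, 30.7% and 31.2% in U937, 25.8% and 24.6% in TPA-treated U937 and 31.8% and 32.2% in MOLM-13. TET1, which oxidises methylated cytosine, was the most changed member in DKO of THP-1 (-1.35 ± 0.11, adjusted p = 8.4e-12), U937 (-3.09 ± 0.19, adjusted p = 1.5e-14) and TPA-treated U937 (-3.37 ± 0.47, adjusted p = 3.9e-07). In THP-1 DKO the cohesin subunits SMC3 and STAG1 were both at -1.20 (standard errors 0.05 and 0.07, adjusted p = 6.7e-20 and 4.9e-16). CTCF and SETDB1 were looked up after their values were seen. CTCF averaged 115 ± 1.95 CPM in THP-1 DKO, 141 ± 1.14 in SKO and 138 ± 0.75 in sgControl (-0.47 ± 0.04, adjusted p = 3.1e-11 in DKO; 0.02 ± 0.04, adjusted p = 0.8 in SKO), and SETDB1 was at 0.17 ± 0.04 in THP-1 DKO (adjusted p = 0.00078) and -0.11 ± 0.05 in U937 DKO (adjusted p = 0.068).

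Of 20 listed partners and effectors, which carry signals from the inner part of the protein, all 20 were tested in THP-1, with 7 higher and 9 lower in DKO (median -0.11) and 10 higher and 4 lower in SKO (median 0.18), where 65.6% and 43.5% of all genes were called. The kinase genes PTK2 and FYN changed most there: PTK2 by 3.69 ± 0.09 in DKO (adjusted p = 8.2e-24) and 3.42 ± 0.09 in SKO (adjusted p = 7.6e-23), and FYN by 2.39 ± 0.07 (adjusted p = 1e-22) and 2.13 ± 0.07 (adjusted p = 2.2e-21). In U937 18 of the list were tested, with 10 higher and 4 lower in DKO (median 0.27, 67.7% of all genes called) and 10 higher and 5 lower in SKO (median 0.20, 61.9%). In TPA-treated U937 the counts were 9 higher and 5 lower of 20 in DKO (median 0.27, 70.6% of all genes called) and 5 and 7 in SKO (median 0.02, 50.4%). They were 11 and 5 of 18 in MOLM-13 SKO (median 0.15, 64%) and 7 and 5 of 19 in OCI-AML-3 DKO (median 0.12, 49.9%).

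The non-clustered protocadherins, relatives encoded singly outside the clusters, gave few testable genes: 7 of 12 in THP-1 and 2 of 12 in U937. At least PCDH1 among them also counts among the genes near the clusters given below. In THP-1 DKO 0 of the 7 were called by edgeR and 0 by DESeq2 (1 at an unadjusted p under 0.05). In THP-1 SKO PCDH8 was higher (0.64 ± 0.25, adjusted p = 0.04) and PCDH12 lower (-0.76 ± 0.16, adjusted p = 0.00025). PCDH12 averaged 21 ± 0.33 CPM in U937 DKO, 10.2 ± 0.743 in SKO and 7.05 ± 0.863 in sgControl and rose in DKO (1.51 ± 0.10, adjusted p = 3e-14) and SKO (0.56 ± 0.10, adjusted p = 1.5e-05). PCDH10, the other gene tested in U937, fell in DKO (-3.61 ± 0.83, adjusted p = 0.00033) and was not called in SKO. In OCI-AML-3 DKO PCDH18 was higher (2.46 ± 0.18, adjusted p = 1.4e-16) and PCDH20 lower (-1.31 ± 0.51, adjusted p = 0.029). Of the 5 pseudogenes within the clusters, 2 had enough reads to be tested, both in THP-1. Of these, 0 were called in DKO (0 at an unadjusted p under 0.05) and 0 in SKO (1 at that p) by edgeR, and 0 by DESeq2. Among 96 other genes within 1000000 bases of the clusters, 40 were tested in THP-1, of which 14 were higher and 11 lower in DKO (median 0.05) and 7 higher and 9 lower in SKO (median 0.02), counts near the 65.6% and 43.5% called over all genes. In U937 35 were tested, of which 11 were higher and 10 lower in DKO and 8 and 8 in SKO, where 67.7% and 61.9% of all genes were called.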

How the data were processed

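The deposited values are raw read counts per gene, which the authors made with featureCounts. STAR 2.7.11b, Subread 2.0.6 and fastp 0.23.4 are named in the submitters' processing notes, with no order or role. Per the file headers, the table of untreated U937 and THP-1 libraries was counted with Subread 2.0.6 by gene name on GENCODE annotation of hg38, without strand, with both mates counted singly and with reads matching several genes or places left out. The table of the remaining libraries has no command line in it. Poly(A) RNA was sequenced, per the labels' protocols.

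Counts were fitted with edgeR 4.0.16 in R 4.3.3 (glmQLFit and glmQLFTest), with TMM scaling and the filterByExpr defaults, over all genes, and p-values were adjusted by Benjamini-Hochberg over all genes tested. The filter keeps a gene with enough reads in as many libraries as the smallest group holds. A member low in 1 group may therefore enter only through a group where it is high. This shapes the counts and medians of the tested members. Each line, and U937 with and without TPA, was fitted on its own groups, and the differences between lines or treatments in joint fits. DESeq2 1.42.0 was an alternative, beside its size factors, no filter on low counts, a replicate block, each library left out, and other sample sets. Halving the counts, for mates counted singly, was an alternative chosen after seeing the data. The fitting script was tested on simulated data modelled on 4 of the comparisons. Of the calls, 9.14% were false for THP-1 SKO, and 3.41% to 4.47% for U937 SKO, MOLM-13 SKO and OCI-AML-3 DKO. It recovered 72.9% of 2-fold changes for THP-1 SKO and 78.6% to 83.5% for the others. The simulations changed 94 to 98 genes at each fold size, of 14603 to 17875 genes. In the real comparisons 43.5% to 64% of all genes were called, so these rates need not hold for the calls here. They are also rates over all genes, not over members with few reads. Levels as CPM divide by all counted reads of a library, and those per kilobase also by the exon bases that no other gene holds.

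The members and gene lists were chosen with earlier results of these data known. Members were to be named with fold changes where they were among the 5 largest rises or falls called in a comparison, and list genes among the 3 largest changes. Members and genes given outside that rule, such as PCDHB5, PCDHGA11 and PCDHGC3 in THP-1 DKO, were chosen after their values were seen. Libraries with the same replicate number did not deviate together (correlations from -0.0377 to 0.0584), so the numbers pair nothing. Near copies were counted as 100-base windows of GENCODE transcripts found in more than 1 member.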

Additional observations from a re-analysis of the deposited data

Results flagged for a closer look

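Members stand here because the test of the difference between 2 knockout effects passed at an adjusted p under 0.05 (edgeR's quasi-likelihood test, Benjamini-Hochberg adjustment over all genes tested). PCDHGC3 had a DKO effect in U937 minus that in THP-1 of -3.12 (standard error 0.56, adjusted p = 1e-05) and an SKO effect difference of -3.85 (standard error 0.50, adjusted p = 4.3e-08). The DKO effect in U937 minus that in THP-1 was 2.18 for PCDHB2 (standard error 0.57, adjusted p = 0.0015), 3.12 for PCDHB8 (standard error 0.91, adjusted p = 0.004) and 2.38 for PCDHGB2 (standard error 0.83, adjusted p = 0.014). The SKO effect on PCDHGB2 in U937 with TPA minus that without TPA was -0.82 (standard error 0.31, adjusted p = 0.037). That call ended with no filter on low counts (adjusted p = 0.06) and without any 1 of 7 libraries (adjusted p from 0.058 to 0.15). The treated and untreated U937 libraries stand in different tables, so treatment and table cannot be told apart.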

How the results depend on the processing

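No direction reversed: of 1456 alternatives over 87 calls on single members, 1327 kept the call and 129 lost it. Leaving out 1 library each time, the number of members called ran from 12 to 14 for THP-1 DKO (14 with all libraries), 8 to 13 for THP-1 SKO (10), 7 to 10 for THP-1 DKO against SKO (9), 2 to 3 for U937 DKO (3), 2 to 3 for U937 SKO (2) and 0 to 2 for U937 DKO against SKO (2). In TPA-treated U937 it ran from 5 to 6 for DKO (5), 3 to 5 for SKO (4) and 2 to 4 for DKO against SKO (4), in MOLM-13 from 2 to 3 (3) and in OCI-AML-3 from 1 to 6 (5). For TPA-treated against untreated cells it ran from 5 to 8 in DKO (8), 2 to 4 in SKO (4) and 3 to 5 in sgControl (4). For the DKO effect with TPA minus that without it ran from 0 to 1 (0), for the SKO effect from 0 to 1 (1), and for U937 minus THP-1 from 4 to 8 for DKO (6) and 2 to 4 for SKO (3). With counts halved, an alternative chosen after seeing the data, the counts were 1 for U937 DKO against SKO, 1 for MOLM-13, 3 for OCI-AML-3, 1 for the SKO effect in U937 minus THP-1 and 1 for the DKO effect with TPA minus that without it. That DKO effect also gave 1 with DESeq2 size factors, 1 with the DESeq2 test and 2 with no filter, and the SKO effect with TPA minus that without it gave 2 with the DESeq2 test. The cause was not tested. Libraries that share a replicate number share only the number. With the replicate block 13 members were called in THP-1 DKO, where PCDHB10 was lost (adjusted p = 0.056), and 3 in SKO cells with against without TPA, where PCDHGA4 was lost (adjusted p = 0.069), and the other 16 counts equalled those without the block. Depth limits the alpha genes and U937 most: members with few reads were not tested, which does not show that they did not differ.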
